A study of Homo sapiens with 6 samples.

Results

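In RT-112, an epithelial cell line derived from a human bladder carcinoma, silencing PPP2R2A with the second of the study's siRNAs (siPPP2R2A_2, here siRNA 2) was compared with a scramble control siRNA. The comparison rests on 2 arrays of siRNA 2 minus 2 arrays of scramble, out of 6 arrays in the series. The remaining 2 arrays hold cells given siPPP2R2A_1 (siRNA 1), an siRNA that also targets PPP2R2A. All groups are the same cell line, plated at 50% confluence, transfected with 50 nM siRNA and RNAiMAX, transfected again after 24 h and harvested 24 h later. The submitters call the arrays of a group technical duplicates, so every p-value measures only the spread between these arrays and not that between separate experiments. Signal was read on oligonucleotide arrays with 54675 probe sets. Genes were taken from the probe sets with exactly 1 gene symbol, 19775 genes in all, each represented by its brightest probe set. A gene was tested if that probe set exceeded the array's median signal on at least 2 of the 6 arrays, which 12735 genes did, and the other 7040 are not described.

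PPP2R2A encodes B55alpha, a regulatory subunit of protein phosphatase 2A (PP2A). PP2A holoenzymes join a scaffold subunit, a catalytic subunit and a regulatory subunit, and the regulatory subunit selects the substrates. B55alpha is known for directing PP2A to phosphoproteins of mitotic exit and of growth factor and TGF-beta signalling. RT-112 cells are well differentiated urothelial carcinoma cells that carry an FGFR3-TACC3 fusion.

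PPP2R2A itself fell with siRNA 2. Its brightest probe set, 202313_at, read 1381 and 1589 with scramble and 510.0 and 533 with siRNA 2. Both siRNA 2 arrays lay far below both scramble arrays, at 35.2% of the scramble mean, with a log2 change of -1.51 ± 0.13 (SE of the limma fit, n = 2 arrays a group, as for all log2 changes given with an error; adjusted p = 0.0461). On this probe set the siRNA 1 arrays read lower, 336 and 397, but siRNA 2 minus siRNA 1 did not pass the test (log2 0.51, adjusted p = 0.158). Probe set 228013_at read 446 and 434 with scramble and 105 and 112 with siRNA 2, a log2 change of -2.01 and 24.8% of the scramble mean. With siRNA 1 it read 72.4 and 109. Another, 236492_at, read 287 and 281 with scramble and 179 and 272 with siRNA 2, a log2 change of -0.36 carried mostly by array A. Its siRNA 1 arrays read 334 and 221. The fourth stayed below the array median.

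Across all genes tested, 76 were called at an adjusted p under 0.05 (limma, Benjamini-Hochberg over the 12735 genes) and a change of at least 1.5-fold, 0.597% of those tested. Of these, 56 were higher with siRNA 2 (0.440% of genes tested) and 20 lower (0.157%). Their adjusted p lay between 0.0385 and 0.0492, all close to the threshold. After centring each array on its median 1 gene was higher and 0 lower, and after leaving out any 1 of the 6 arrays 0 were called (1922 to 2416 at an unadjusted p under 0.05). Without adjustment, p was under 0.05 for 1529 genes higher and 1115 lower. A fit that lets the spread depend on signal level (the intensity trend) called 292 genes higher, 2.29% of those tested, and 180 lower, 1.41%, among them 71 of the 76. Below, called means called by limma without that trend, and calls of the trend fit are named as such. Of the 76 called genes, 3 passed the filter on low values in 1 group alone, PRAF2 and MATN3 through the siRNA 2 arrays and LRIG1 through the siRNA 1 arrays. The median log2 change of all genes tested was 0.02, with 6674 above 0.

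A change of at least 1.5-fold, with or without a call, was seen for 769 genes higher and 617 lower, and of at least 2-fold for 244 and 179. Both siRNA 2 arrays lay above both scramble arrays for 28.4% of genes tested and below both for 24.0%, which is the background against which such separation in any group of genes is read. Counts of calls are read likewise, beside 0.440% of genes tested called higher and 0.157% lower, or 2.29% and 1.41% by the trend fit. All gene lists below were chosen with earlier results of these data known, so their counts and medians are no independent test. Signal below the array medians, between 69.3 and 76.2, is called dim here. Log2 changes below are siRNA 2 minus scramble on the brightest probe set unless stated.

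**Figure D1:**
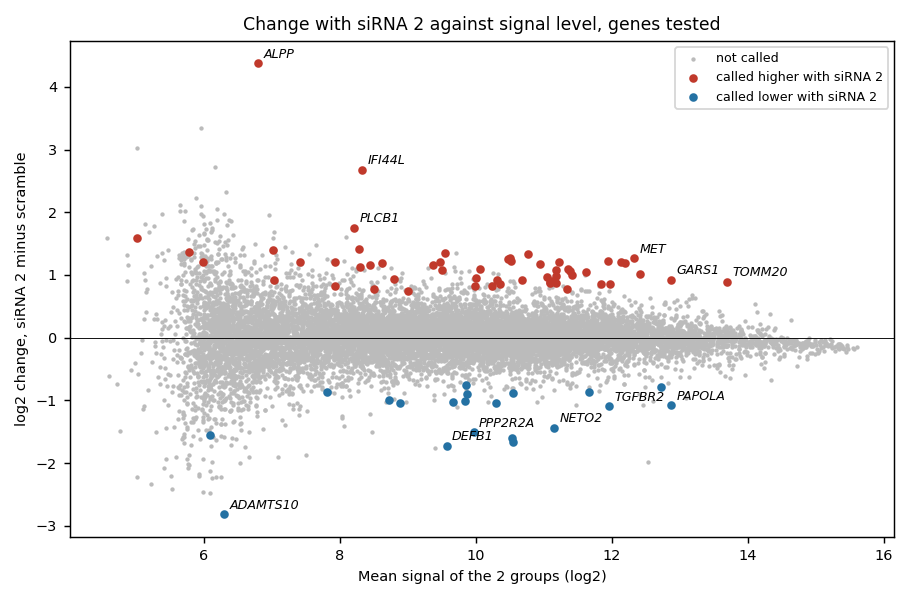
Log2 change with siRNA 2 against scramble (vertical axis) by mean signal of both groups (horizontal axis, log2) for the 12735 genes tested, with the 56 called higher in red and the 20 called lower in blue. Called genes occur at low and at high signal, and changes past 2 on the log2 scale that were not called are mostly at the dim end.

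Other cell types and RNA quality were checked once. All 10 epithelial and urothelial markers exceeded the median on every array, with summed signals of 140661 and 135963 with scramble and 116138 and 124338 with siRNA 2. Of 4 leukocyte markers PTPRC, CD14 and LYZ were below it on all arrays and CD3E was above it on both siRNA 1 arrays alone (76.7 and 111), with a list sum of 39.1 to 131 with siRNA 2 and 89.3 to 113 with scramble. Of 7 fibroblast markers, LUM and COL1A1 exceeded it on every array and PDGFRB, COL1A2 and COL3A1 on none, with sums of 5862 to 5896 against 5999 to 6335. Of the endothelial and smooth muscle markers, PECAM1, CDH5, ACTG2 and DES exceeded it on every array, with endothelial sums of 330.4 to 428 against 409 to 504 and smooth muscle sums of 538 to 571 against 472 to 473. The ratio of the 3' to the 5' probe set of ACTB, which grows as RNA is degraded or labelled less fully, was 7.47 and 12.4 with siRNA 2 against 5.43 and 5.94 with scramble and 6.52 and 7.82 with siRNA 1. That of GAPDH lay between 0.943 and 1.02 on all 6 arrays. The ACTB ratio thus moved with the comparison, highest on siRNA 2 array B, and its part in the results below was not tested.

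Among the 19 PP2A subunits tested, 1 was called higher and 1, PPP2R2A, lower, 10 had a log2 change above 0 and the median was 0.05, beside 0.02 for all genes. The trend fit called 2 higher and 1 lower. The scaffold subunit PPP2R1B rose, with readings of 834 and 843 with scramble and 2034 and 1960.3 with siRNA 2. Both siRNA 2 arrays were more than double the scramble arrays, a log2 change of 1.25 ± 0.12 (adjusted p = 0.0461). With siRNA 1 it read 1623 and 1336. Its other probe sets above the filter stood at 0.56, -0.21 and -0.13 on the log2 scale, and the brightest can also bind related transcripts. The other scaffold subunit, PPP2R1A, read 504 and 714 with scramble and 1002 and 909 with siRNA 2, with the groups apart but a log2 change of 0.67 ± 0.18 (adjusted p = 0.149) that limma did not call and the trend fit did (adjusted p = 0.0242).

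Neither catalytic subunit was called. PPP2CA read 6961 and 6959 with scramble and 9214 and 8052 with siRNA 2, a log2 change of 0.31 ± 0.10 (adjusted p = 0.192), and PPP2CB had -0.04 ± 0.08 (adjusted p = 0.846). Among the other B55 subunits, PPP2R2B stood at -0.11, PPP2R2C at 0.27 and PPP2R2D at 0.23, with overlapping arrays in each case and no call. The B56 subunits PPP2R5A to PPP2R5E lay between -0.16 and 0.30. Of the PR72 family, PPP2R3A read 1961 and 1982 with scramble and 1529.7 and 1632 with siRNA 2 (log2 change -0.32 ± 0.08, adjusted p = 0.129), lower on both arrays, and PPP2R3B and PPP2R3C stood at 0.15 and -0.06. The striatins STRN, STRN3 and STRN4, which anchor PP2A in a kinase complex, stood at -0.08, 0.25 and 0.05. Among 13 tested regulators of PP2A, BOD1, which inhibits B56-bound PP2A at kinetochores, was called: it read 1953 and 2142 with scramble and 4193 and 4307 with siRNA 2, a log2 change of 1.05 ± 0.09 (adjusted p = 0.0461).

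The largest rise was that of ALPP, the placental alkaline phosphatase, whose near-identical paralog in the same gene cluster its probe set may not tell apart. It read 13.02 and 6.48 with scramble and 198 and 226 with siRNA 2, and 125 and 194 with siRNA 1. The scramble arrays were dim, so the fitted log2 change of 4.38 ± 0.37 depends on readings near the bottom of the scale. Set against the array medians the rise is at least 2.86-fold. IFI44L, an interferon-induced gene, rose next: 80.4 and 92.9 with scramble and 578 and 539 with siRNA 2, with a log2 change of 2.68 ± 0.12 (adjusted p = 0.0385). It remained called after median centring.

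Several signalling genes followed. PLCB1, a phospholipase C that acts downstream of G proteins, read 148 and 124 with scramble and 468 and 447 with siRNA 2, a log2 change of 1.75 ± 0.12 (adjusted p = 0.0461). MET, the receptor of hepatocyte growth factor, read 2985 and 3023 with scramble and 7604 and 6921 with siRNA 2, a log2 change of 1.27 ± 0.09 (adjusted p = 0.0461). The MET arrays of siRNA 2 did not overlap those of scramble and spanned those of siRNA 1, at 7152 and 7295. Its other probe sets above the filter, both dim or nearly so, stood at 0.17 and 0.60. LRIG1, which restrains receptor tyrosine kinases, read 14.5 and 16.7 with scramble and 48.6 and 49.1 with siRNA 2, all 4 dim. It was tested through its siRNA 1 arrays, and although limma called it, no size is given and the trend fit did not call it. Of the 22 receptor tyrosine kinases, ligands and regulators tested, MET was the other call, the median change was -0.08, and the trend fit called 1 higher and 1 lower. PTPN14, a phosphatase of the YAP pathway, read 695 and 694 with scramble and 1402 and 1300.1 with siRNA 2 (log2 change 0.96 ± 0.08, adjusted p = 0.0461).

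Single genes of the lists for the cell cycle, polyamines and apoptosis were called higher, while the medians of those lists lay close to 0. CCND3, a D-type cyclin, read 923 and 836 with scramble and 2124 and 1997 with siRNA 2 (log2 change 1.23 ± 0.10, adjusted p = 0.0461). It was the only limma call among 20 genes of G1 and S phase control, whose median was 0.06 with 13 above 0. Averaged over its probe sets CCND3 stood at -0.0778, but its other probe set, at -1.38, did not pass the filter on low values. Of 13 polyamine genes, with a median of -0.03, 1 was called. ODC1, the first enzyme of polyamine synthesis and a MYC target, read 2583 and 2853 with scramble and 6672 and 5949 with siRNA 2 (log2 change 1.21 ± 0.11, adjusted p = 0.0461). MCL1, which restrains apoptosis, read 3621 and 3611 with scramble and 6998 and 7603 with siRNA 2 (log2 change 1.01 ± 0.09, adjusted p = 0.0461), and its 5 other probe sets above the filter all stood above 0, at 0.21 to 0.63. It was the call among 19 genes of the BCL2 family and apoptosis, whose median was -0.02 with 9 above 0. In CCND3, ODC1 and MCL1 the arrays of the groups did not overlap. STMN1, a microtubule regulator, was called at 0.86 on the log2 scale. It stood at -0.10 as the mean of its probe sets, where the other probe set, at -1.06, did not pass the filter either. BANF1, which bridges chromatin and the nuclear envelope, rose by 1.20. The list of ribosome biogenesis and MYC targets, ODC1 included, had a median of -0.14 with 5 of 24 above 0, mitosis -0.04 with 9 of 31, and DNA replication -0.02 with 11 of 23.

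PTPMT1, a mitochondrial phosphatase of cardiolipin synthesis, read 426 and 413 with scramble and 969 and 1193 with siRNA 2 (log2 1.36). TAPT1, a membrane protein, read 985 and 1009 with scramble and 2494 and 2518 with siRNA 2, and it was the gene for which at least 2 other probe sets all passed 1.5-fold the same way: log2 1.33 on the brightest, 1.18 and 0.85 on the others. RPRD1A, a binder of the RNA polymerase II tail, read 797 and 901 with scramble and 2068 and 2021 with siRNA 2 (log2 1.27), while siRNA 1 read 801 and 655. The other RPRD1A probe sets above the filter ranged from -0.27 to 1.15. MCFD2, a cargo receptor cofactor of the secretory pathway, read 2261 and 2476 with scramble and 6005 and 5037 with siRNA 2 (log2 1.22). SUSD1 rose by 1.40 and PCNX2 by 1.42 on the log2 scale. PRAF2 was called at 1.36, from dim scramble readings and tested through its siRNA 2 arrays alone, and set against the array medians its rise is at least 1.08-fold. RAB7A, the small GTPase of late endosomes, read 1575 and 1694 with scramble and 3006 and 2989 with siRNA 2 (log2 0.88), and NRBF2, an autophagy factor, rose by 1.09.

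**Figure D2:**
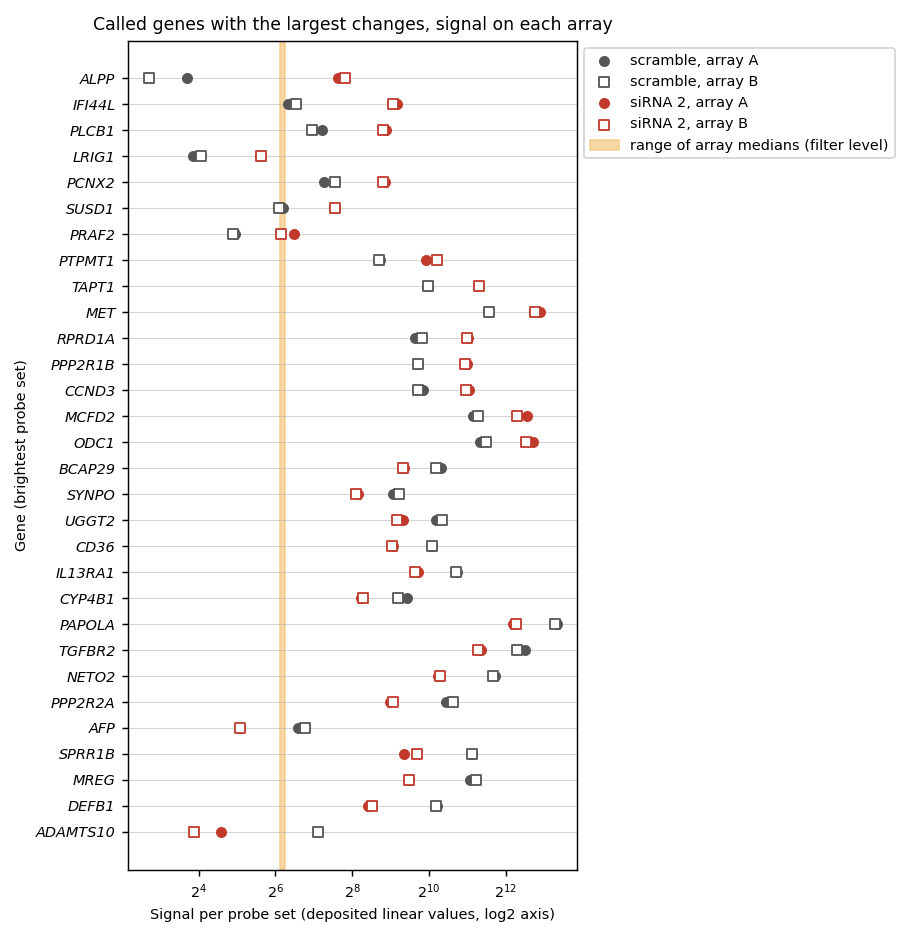
Signal of the 15 largest rises and 15 largest falls among called genes on each scramble and siRNA 2 array (horizontal axis, log2), with circles for array A, squares for array B and a band for the array medians. Within each gene the groups do not overlap, and ALPP, LRIG1, PRAF2, AFP and ADAMTS10 have one or both groups on the dim side of the band.

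Genes that ATF4 switches on when amino acids run short or the endoplasmic reticulum (ER) is under load stood above 0 in all but 1 case. ATF4 is a transcription factor of the integrated stress response, whose targets make amino acids, charge tRNAs and feed back on the pathway. The list was chosen with earlier results of these data known, so its counts are no independent test. Of 36 genes tested in that list, 35 had a log2 change above 0, and the median was 0.46. Limma called 4, all higher, beside 0.440% of all genes tested called higher. The trend fit called 11, all higher, beside 2.29%. Both siRNA 2 arrays lay above both scramble arrays for 32 of the 36 and below for 0, beside the 28.4% and 24.0% given above. Of 15 other settings, 9 moved the median at all, and it kept its sign in those 9, from 0.40 to 0.48. All of these settings reuse the same arrays. The list median with siRNA 1 was 0.22.

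The promoters of ASNS and CHAC1 are shown because both genes were called and both hold the core of the ATF4 composite element, TGATGNAA, on either strand. They are the 250 bases before a RefSeq start site (GRCh38.p14), with the matching letters in capitals. The ASNS window is chr7:97872409-97872658, minus strand, for 1 of its 2 listed starts, and that of CHAC1 is chr15:40953221-40953470, plus strand, where the match is on the opposite strand.
ASNS: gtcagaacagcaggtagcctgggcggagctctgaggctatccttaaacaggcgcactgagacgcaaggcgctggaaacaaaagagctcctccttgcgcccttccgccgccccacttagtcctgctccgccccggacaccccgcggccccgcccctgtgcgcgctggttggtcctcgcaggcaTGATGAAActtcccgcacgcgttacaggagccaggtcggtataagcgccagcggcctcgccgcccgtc
CHAC1: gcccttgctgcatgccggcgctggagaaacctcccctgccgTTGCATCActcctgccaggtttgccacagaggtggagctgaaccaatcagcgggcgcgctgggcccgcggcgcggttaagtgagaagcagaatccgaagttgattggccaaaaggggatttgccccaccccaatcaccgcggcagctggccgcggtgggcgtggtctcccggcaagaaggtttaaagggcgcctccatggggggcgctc
The same letters stand in such a window for 8 of the 31 list members with an entry, 25.8%, and for 255 of 10294 tested genes with an entry, 2.48%, and in 3.14% of all 35116 windows. Over genes called higher, list members included, it is 4 of 48 with an entry, 8.33%, and over those called lower 1 of 17. The list holds genes known to be switched on by ATF4, so its share says nothing of siRNA 2. A match describes these letters and says nothing of binding.

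ASNS, asparagine synthetase, read 2756 and 2931 with scramble and 6769.7 and 6251 with siRNA 2. Both siRNA 2 arrays were more than double the scramble arrays, a log2 change of 1.19 ± 0.09 (adjusted p = 0.0461), and siRNA 1 lay between at 4434 and 4537. CHAC1, which degrades glutathione, read 222 and 209.5 with scramble and 470.2 and 494 with siRNA 2 (log2 change 1.16 ± 0.12, adjusted p = 0.0490). GARS1, a glycyl-tRNA synthetase whose promoter window also holds the motif, read 5446 and 4902 with scramble and 9800.2 and 9849.6 with siRNA 2 (log2 change 0.93 ± 0.09, adjusted p = 0.0461). TRIB3, a pseudokinase that feeds back on ATF4, read 917 and 839 with scramble and 1610.2 and 1719 with siRNA 2 (log2 change 0.92 ± 0.10, adjusted p = 0.0492). In all 4 the groups were apart and the siRNA 1 arrays stood between them. Unlike ASNS, CHAC1 and GARS1, TRIB3 had no match to the motif in its promoter window.

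Further members missed the limma call. The trend fit called DDIT3, STC2, SLC7A11, GDF15, SLC1A4 and PCK2 of those named next. DDIT3, which encodes CHOP, read 449 and 346 with scramble and 744 and 983 with siRNA 2 (log2 change 1.11 ± 0.22, adjusted p = 0.0950). STC2, a secreted glycoprotein, read 107 and 86.8 with scramble and 193 and 203 with siRNA 2 (log2 change 1.03 ± 0.13, adjusted p = 0.0571). SLC7A11, the cystine transporter, read 1393 and 1567 with scramble and 2330.1 and 2607 with siRNA 2 (log2 change 0.74 ± 0.11, adjusted p = 0.0695). Duplicates of DDIT3 spread widely, those of SLC7A11 less. The mRNA of ATF4 itself read 14869 and 14093 with scramble and 20512 and 21304 with siRNA 2 (log2 change 0.53 ± 0.12, adjusted p = 0.113). GDF15, SLC1A4 and PCK2 stood at 0.59, 0.81 and 0.69. At the other end, CEBPB stood at -0.12 and was the member below 0, while DDIT4 and the amino acid transporters SLC38A2 and SLC7A5 stood at 0.02, 0.02 and 0.07.

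ER folding and degradation genes had a smaller shift. Of 35 tested, 29 were above 0, and the median was 0.22. Limma called 2, both higher, beside 0.440% of all genes tested called higher. The trend fit called 8 higher and 0 lower, beside 2.29% and 1.41%. The arrays were separated upward for 20 and downward for 3. SEL1L, an adaptor of ER-associated degradation, read 1840.3 and 1621 with scramble and 3690.1 and 3507 with siRNA 2 (log2 change 1.06 ± 0.10, adjusted p = 0.0461). CALU, a calcium-binding protein of the secretory pathway, read 1549 and 1568 with scramble and 2959 and 3209.6 with siRNA 2 (log2 change 0.98 ± 0.08, adjusted p = 0.0461), and its 4 other probe sets above the filter stood at 0.03 to 1.29. The siRNA 1 arrays read 3642 and 3484 for SEL1L, overlapping siRNA 2, and 3346 and 3352 for CALU, above it. The disulfide isomerase PDIA4 and the co-chaperone DNAJC3 stood at 0.76 and 0.75, called by the trend fit alone. HSP90B1 and CANX, abundant ER chaperones, stood at -0.12 and 0.02. The lowest member of the list stood at -1.48, called by neither fit, and 2 members were lower at an unadjusted limma p under 0.05. UGGT2, a glucosyltransferase of the ER that is not in this list, was called lower by both fits (log2 change -1.02). ERN1, which encodes the ER stress sensor IRE1alpha, read 395 and 371 with scramble and 585 and 570.0 with siRNA 2 and 280.3 and 270.0 with siRNA 1, so that it was higher than scramble with one siRNA and lower with the other, though the siRNA 2 change of 0.59 ± 0.08 (adjusted p = 0.0603) was called by the trend fit alone. The 12 heat shock genes tested had a median of -0.03, with 3 above 0 and none called (1 higher and 1 lower at an unadjusted limma p under 0.05, and 0 by the trend fit).

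Interferon-response genes stood on both sides of 0. Interferon-stimulated genes encode antiviral proteins and are switched on through a response element read by STAT and IRF factors. Of 48 tested, 31 were above 0, and the median was 0.10, while the list median with siRNA 1 was 0.41. Limma called 2, both higher, beside 0.440% of all genes tested called higher. The trend fit called 8 higher and 2 lower, beside 2.29% and 1.41%. The promoters of both called genes are shown, as the 250 bases before the RefSeq start site (GRCh38.p14), because both hold the core of that response element, GAAA repeated after any 2 bases, here in capitals. The IFI44L window is chr1:78620198-78620447, plus strand, with 2 matches, and the IFI6 window is chr1:27672193-27672442, minus strand, with 3.
IFI44L: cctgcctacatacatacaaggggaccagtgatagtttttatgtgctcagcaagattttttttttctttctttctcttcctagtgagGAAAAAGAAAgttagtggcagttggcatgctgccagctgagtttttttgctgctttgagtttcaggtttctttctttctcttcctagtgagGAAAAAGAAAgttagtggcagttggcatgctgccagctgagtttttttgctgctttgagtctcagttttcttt
IFI6: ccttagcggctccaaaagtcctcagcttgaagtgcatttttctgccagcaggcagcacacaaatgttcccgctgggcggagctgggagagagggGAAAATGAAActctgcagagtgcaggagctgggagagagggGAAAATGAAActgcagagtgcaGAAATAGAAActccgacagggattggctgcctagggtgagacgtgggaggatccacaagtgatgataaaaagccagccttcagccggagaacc
On either strand this repeat stands in the window of 26 of 42 list members with an entry, 61.9%, against 329 of 10294 tested genes, 3.20%, and 3.02% of all windows. Over genes called higher, list members included, it is 4 of 48, 8.33%, and over those called lower 0 of 17. The list holds known interferon-response genes, so its share says nothing of siRNA 2. No match of this motif overlaps one of TGATGNAA in the windows shown.

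IFI6, an interferon-induced mitochondrial and ER protein, read 627 and 735 with scramble and 1526 and 1385 with siRNA 2, a log2 change of 1.10 ± 0.11 (adjusted p = 0.0490). XAF1, a pro-apoptotic interferon target, read 102 and 109 with scramble and 302 and 289 with siRNA 2 (log2 change 1.48 ± 0.20, adjusted p = 0.0577), with the groups apart. IRF9, the DNA-binding partner of STAT proteins in the interferon response, read 811 and 886 with scramble and 1568 and 1887 with siRNA 2 (log2 change 1.02 ± 0.16, adjusted p = 0.0695), and IFITM1, an antiviral membrane protein, stood at 1.15. Limma called none of these 3, XAF1, IRF9 and IFITM1, and the trend fit called each. Other members lay the other way. OASL read 4991 and 4565 with scramble and 3244 and 2750.4 with siRNA 2 (log2 change -0.68 ± 0.13, adjusted p = 0.0863), and IFIT2 read 2556 and 2447 with scramble and 1867 and 1275 with siRNA 2 (log2 change -0.70 ± 0.20, adjusted p = 0.164), both lower on both arrays and called by the trend fit alone. The chemokine CXCL10 read 267 and 331 with scramble and 243 and 244 with siRNA 2 and 714 and 889.8 with siRNA 1, a log2 difference between the siRNAs of -1.71 (adjusted p = 0.0575). CXCL11, also a chemokine, and MX1, an antiviral GTPase, stood at -0.90 and -0.88 against scramble, and at 0.88 and 0.79 with siRNA 1. Among 13 sensors of double-stranded RNA the median was -0.02 and none was called (1 higher and 1 lower at an unadjusted limma p under 0.05, and 0 by the trend fit).

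Genes of squamous differentiation stood below 0 in all but 2 cases. The cornified envelope is the cross-linked protein shell of squamous cells, built from small proline-rich proteins, involucrin and S100 proteins. This list too was chosen with earlier results of these data known, so its counts are no independent test. Of 24 tested in it, 2 were above 0, and the median was -0.45. Limma called 1, lower, beside 0.157% of all genes tested called lower. The trend fit called 7, all lower, beside 1.41%. Both siRNA 2 arrays lay below both scramble arrays for 16 and above for 2. Of 15 other settings, all on the same arrays, 8 moved the median at all, and all 8 kept it below 0, from -0.52 to -0.39. SPRR1B, a small proline-rich protein, fell: it read 2225 and 2237 with scramble and 655 and 819 with siRNA 2, a log2 change of -1.61 ± 0.13 (adjusted p = 0.0461), with siRNA 1 between at 1391 and 1419.

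Several abundant members missed the limma call, among them S100A8, S100A9, SPRR3, KRT13 and SERPINB3, which the trend fit called lower. S100A8, a subunit of calprotectin, read 8177 and 10635 with scramble and 1645 and 3378 with siRNA 2 (log2 change -1.98 ± 0.37, adjusted p = 0.0846). Its partner S100A9 read 10249.6 and 12653 with scramble and 4617 and 7469 with siRNA 2 (log2 change -0.96 ± 0.26, adjusted p = 0.146). In both the siRNA 2 duplicates were far apart, while the siRNA 1 arrays read 7892 and 7637 for S100A8. SPRR3 read 7739.6 and 8944 with scramble and 3793 and 4506 with siRNA 2 (log2 change -1.01 ± 0.13, adjusted p = 0.0559), and the suprabasal keratin KRT13 read 26033 and 24864 with scramble and 16154 and 15787 with siRNA 2 (log2 change -0.67 ± 0.08, adjusted p = 0.0553). In neither did the groups overlap. IVL, which encodes involucrin, stood at -0.44, and SERPINB3, a serpin of squamous epithelium, at -0.89.

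Keratins, luminal genes and epithelial antimicrobial genes also lay mostly below 0. Of 9 basal and simple keratins none was above 0 and the median was -0.31, with none called by limma, 5 lower at an unadjusted p under 0.05 and 2, KRT23 and KRT8, lower by the trend fit. KRT23 read 1136 and 944 with scramble and 375 and 251 with siRNA 2 (log2 change -1.75 ± 0.23, adjusted p = 0.0571) and KRT8 read 10077 and 9755 with scramble and 6559 and 6333 with siRNA 2 (log2 change -0.62 ± 0.08, adjusted p = 0.0558), with groups that did not overlap. KRT18, the partner of KRT8 in simple epithelia, and KRT7 stood at -0.06 and -0.15.

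Of 23 urothelial luminal genes 5 were above 0, the median was -0.20, and CYP4B1 was called, beside 2 lower by the trend fit. CYP4B1, a cytochrome P450 of urothelium, read 684 and 588 with scramble and 302 and 314 with siRNA 2, a log2 change of -1.04 ± 0.10 (adjusted p = 0.0462), while siRNA 1 read 783 and 769. The luminal regulators GATA3 and PPARG stood at -0.32 and 0.16, and the uroplakin UPK1B at -0.39. Of 9 defensins and antimicrobial genes 1 was above 0, with a median of -0.36, and limma and the trend fit each called 1, lower. DEFB1, an epithelial defensin, fell: it read 1181 and 1158 with scramble and 341 and 365 with siRNA 2, a log2 change of -1.73 ± 0.08 (adjusted p = 0.0385). Its siRNA 1 arrays read 782 and 734, so that all 3 groups were apart. LCN2 and SLPI, also antimicrobial, stood at -0.20 and -0.31. S100A7 and PI3, which belong both here and to the cornified list, were partly dim. The member above 0 was CCL20, a chemokine (1.34), from readings of 15.03 and 20.6 with scramble and 18.8 and 112 with siRNA 2.

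**Figure D3:**
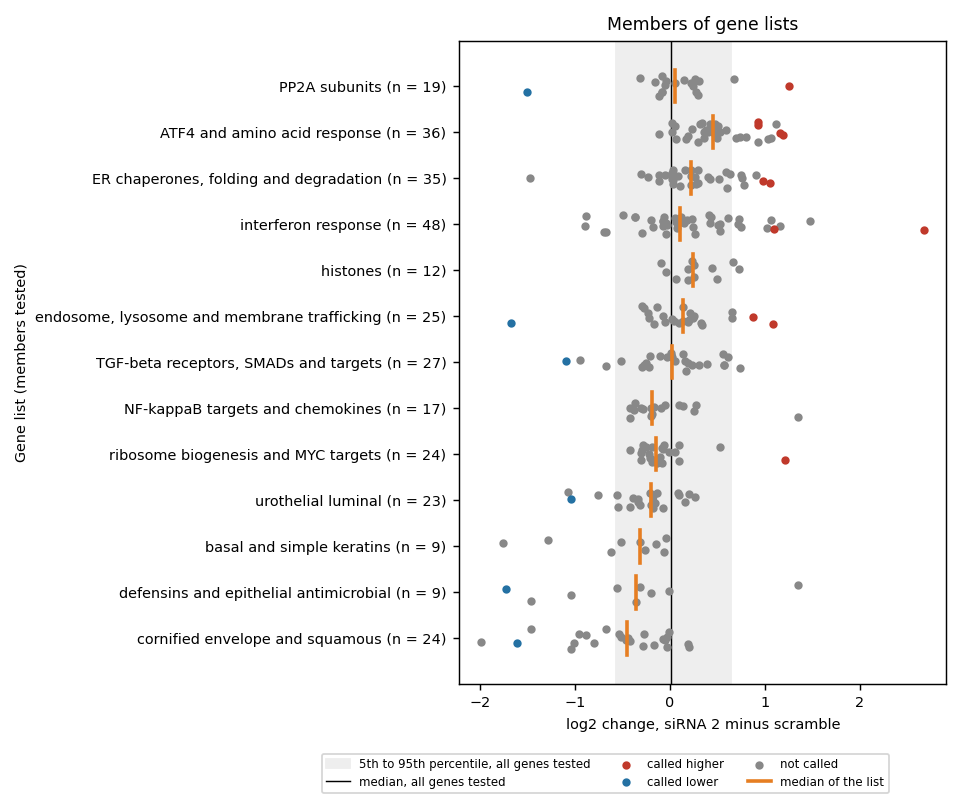
Log2 change with siRNA 2 against scramble of every tested member of 13 gene lists (horizontal axis), with red for called higher, blue for called lower, grey for not called and an orange bar for the list median. The grey band spans the 5th to 95th percentile of all genes tested, from -0.57 to 0.64. Members of the ATF4 list lie above 0 but for CEBPB, and those of the squamous list below 0 but for 2.

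Among the other falls, ADAMTS10, a secreted metalloprotease, was called at log2 -2.81 from readings of 137 and 138 with scramble and 23.9 and 14.7 with siRNA 2. The siRNA 2 arrays were dim, so the fall, set against the array medians, is at least 1.90-fold, and its probe set can also bind related transcripts. MREG, melanoregulin, a protein of melanosome and lysosome traffic, read 2154 and 2384 with scramble and 709 and 715 with siRNA 2, a log2 change of -1.67 ± 0.09 (adjusted p = 0.0385). Its second probe set above the filter stood at -0.35. NETO2, an accessory subunit of kainate receptors, read 3396 and 3268 with scramble and 1215 and 1244 with siRNA 2 (log2 change -1.44 ± 0.08, adjusted p = 0.0385), and its second probe set stood at -0.52. The siRNA 1 arrays read 2081 and 2079.9 for MREG and 3466 and 3442 for NETO2, log2 changes of -0.12 and 0.05 against scramble.

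TGFBR2, the type II TGF-beta receptor, fell: it read 5785 and 5047 with scramble and 2601 and 2470.2 with siRNA 2, a log2 change of -1.09 ± 0.10 (adjusted p = 0.0461), and 4940.0 and 5288 with siRNA 1. The 27 TGF-beta receptors, SMADs and targets around it had 16 members above 0 and a median of 0.02, which changed sign in 2 of the 8 other settings that moved it. The trend fit called 2 of them higher and 3 lower. ID1, a target of BMP signalling, read 7196 and 8001 with scramble and 4623 and 4869 with siRNA 2 (log2 change -0.68 ± 0.10, adjusted p = 0.0637). ID3, another such target, read 2698 and 2583 with scramble and 1249 and 1504 with siRNA 2 (log2 change -0.95 ± 0.12, adjusted p = 0.0556). Both were lower on both siRNA 2 arrays and called by the trend fit alone. The receptors BMPR2 and ACVR1 lay the other way, at 0.62 and 0.56, and the feedback gene SKIL at 0.74, where the trend fit called BMPR2 and SKIL and limma none of the 3.

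PAPOLA, the nuclear poly(A) polymerase, read 10263 and 10058 with scramble and 4683 and 4941 with siRNA 2 (log2 change -1.08 ± 0.08, adjusted p = 0.0461). Its 5 other probe sets above the filter ranged from -1.67 to 0.37, where the brightest of them stood at -0.28 and the next at -0.27. CD36, a scavenger receptor that takes up fatty acids, read 1091 and 1081 with scramble and 537 and 529 with siRNA 2 (log2 change -1.03 ± 0.07, adjusted p = 0.0461), and IL13RA1, a receptor chain for interleukin-13, read 1695 and 1678 with scramble and 844 and 796 with siRNA 2 (log2 change -1.04 ± 0.08, adjusted p = 0.0461). Each of these 3 had groups well apart on the brightest probe set and siRNA 1 readings above scramble there. The other IL13RA1 probe sets above the filter fell less, at -0.39, -0.53 and -0.42. UGGT2, a glucosyltransferase of the ER, and SYNPO, synaptopodin, fell by 1.02 and 1.00 on the log2 scale. BCAP29, an ER export protein, fell by 0.91, SKP2, a ubiquitin ligase subunit of cell cycle control, by 0.79 and WNT11, a secreted ligand, by 0.87. AFP, alpha-fetoprotein, was called at -1.55, with dim siRNA 2 readings, so that the fall is at least 1.40-fold.

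How far the other probe sets of a gene repeated the call was counted for all called genes. Of the 76, 39 had another probe set above the filter and 37 had none. Those 39 had 94 other probe sets, of which 71 (75.5%) had the gene's direction and 33 (35.1%) did so by at least 1.5-fold. For 23 of the 39 genes every other probe set had the gene's direction, and for 34 at least 1 had. For comparison, 71.8% of the other probe sets of genes past 1.5-fold but not called had the gene's direction, and 59.7% over all genes tested, where 9.20% also passed 1.5-fold. Genes called higher and lower had 49 of 64 and 22 of 30 other probe sets in the gene's direction. Among the called genes, 19 of the 56 higher and 3 of the 20 lower rest on a probe set of a type that can also bind related transcripts.

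Within genes the regions sampled could differ. CD36 had 2 other bright probe sets lower, at -1.41 and -1.09. Its remaining ones were dim or nearly so, one lower, with siRNA 2 readings of 4.53 and 53.9, and one at 0.43. CALU and MCL1, above, had all others on the gene's side. HECTD2, a ubiquitin ligase, was called at 0.93 while its other probe set stood at -0.64. BICD1, a dynein adaptor, was called at -0.76 with other probe sets at -0.51, 0.30, 0.76 and 1.89, the last from 27.4 with scramble to 101 with siRNA 2. The actin-binding CALD1, called at 0.85, had 4 other probe sets above 0 and 2 below, at -0.33 and -0.77. MCFD2 read 2261 and 2476 with scramble and 6005 and 5037 with siRNA 2 on its brightest probe set, and on the next brightest 2542 as the scramble mean and 2110.5 as the siRNA 2 mean, the opposite direction (log2 -0.27). RAB7A, ZNHIT6, BCAP29, UGGT2 and PAPOLA also had another probe set on the opposite side, the farthest at -0.36, -0.55, 0.77, 0.40 and 0.37 in that order. RPRD1A, called higher, had other probe sets at -0.27 and -0.19, beside those above 0. PCNX2, MGAT4A, ATP9A and CNDP2, also called higher, each had one below 0, at -0.09, -0.14, -0.27 and -0.25 in that order.

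**Figure D4:**
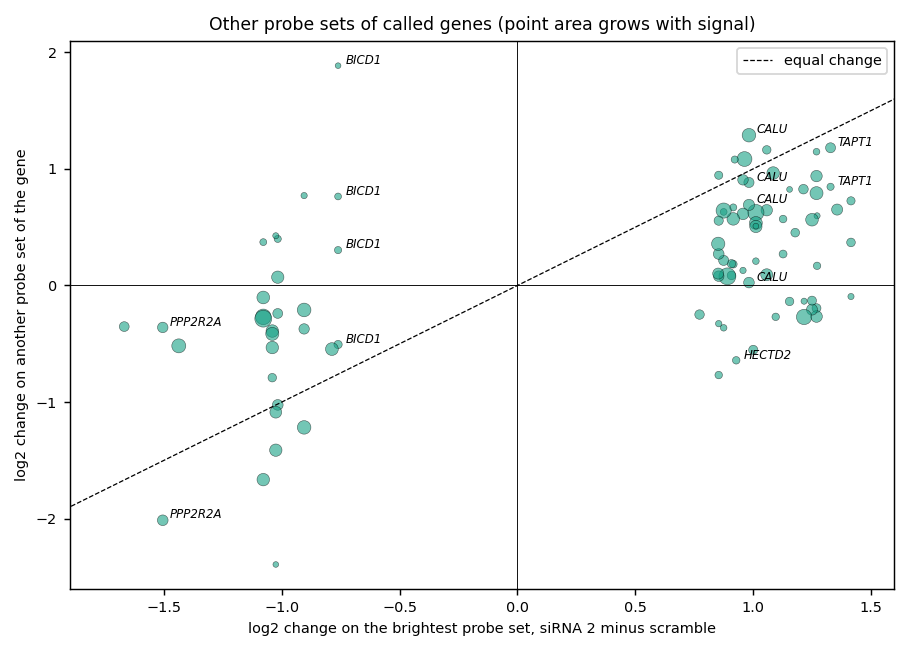
Log2 change on each of the 94 other probe sets above the filter (vertical axis) against that on the brightest probe set of the same called gene (horizontal axis), with the dashed line marking equal change and larger points brighter probe sets. Most points share the sign of the brightest probe set, 71 of 94, and the 3 BICD1 points above 0 at the left stand on the opposite side.

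The changes with siRNA 1 are set beside these as values only, since both siRNAs are compared with the same 2 scramble arrays. Of the 56 genes called higher with siRNA 2, 52 were also above scramble with siRNA 1 and 19 were called there, and the median log2 change was 1.09 with siRNA 2 and 0.72 with siRNA 1. Of the 20 called lower, 15 were below scramble with siRNA 1 and 1, PPP2R2A, was called, and the medians were -1.04 and -0.13. Over all genes tested the median with siRNA 1 was 0.01. How many of all genes tested share a side between the siRNAs or were called with siRNA 1 was not counted. Without those shares the counts show neither agreement nor lack of it. The contrast siRNA 2 minus siRNA 1 does not use the scramble arrays as a baseline. It does share the siRNA 2 arrays and the estimate of spread with the call against scramble, so some overlap is built in. The contrast called 27 genes, 0.212% of those tested. Of the 76 genes called against scramble, 2 of the higher and 8 of the lower were among them. No gene was called in that contrast after leaving out any 1 array (1599 to 2162 at an unadjusted p under 0.05).

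The 2 higher genes were CALD1, at 2038 and 2068 with siRNA 1, and MATN3, a cartilage matrix protein that was dim in both other groups and was tested through its siRNA 2 arrays alone. CALD1 read 2631 and 2620.3 with scramble and 4663 and 4834 with siRNA 2, so it was below scramble with siRNA 1 and above it with siRNA 2, a log2 difference of 1.21 (adjusted p = 0.0467). The 8 lower genes were ADAMTS10, MREG, NETO2, CYP4B1, IL13RA1, CD36, PAPOLA and DEFB1. For the first 7 of these the siRNA 1 change against scramble lay between -0.12 and 0.29 on the log2 scale, and for DEFB1 it was -0.63. TGFBR2 and RPRD1A, with differences of -1.01 and 1.496, missed the threshold (adjusted p = 0.0586 and 0.0574). MET, BANF1, SEL1L and ATP9A, a phospholipid flippase, differed by 0.01 each, close to 0.

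**Figure D5:**
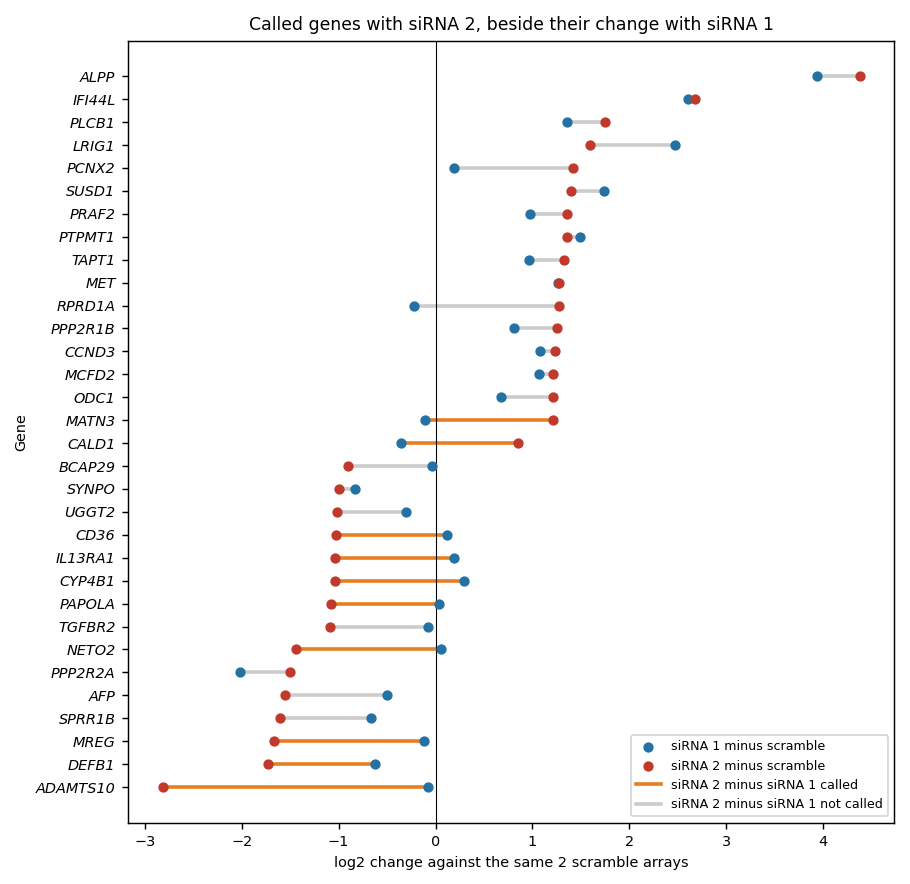
Log2 change against the same 2 scramble arrays with siRNA 2 (red) and siRNA 1 (blue) for 32 called genes: the 30 with the largest changes plus MATN3 and CALD1. Orange lines join the values of the 10 genes whose difference between the siRNAs was called, and 8 of those 10 are falls with siRNA 2, with siRNA 1 values from -0.63 to 0.29.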

How the data were processed

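RNA of RT-112 cells was measured on 6 oligonucleotide arrays, in 3 groups of 2 named in the titles; 1 siRNA 1 title with another spelling of the gene was placed by its number. The authors deposited linear intensity values for each probe set, made with Affymetrix Expression Console, per the submitters' processing notes. Its version and algorithm were not stated in those notes or the labels. Every array had a mean of about 500.07 after trimming, so the arrays had been scaled to a common level.

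Values were used as log2(signal + 1), and fold changes are on that scale. Probe sets took symbols from the platform table. Of those with 1 symbol, 41037 of 41091 matched RefSeq (GRCh38.p14) by Entrez identifier and 54 did not, and 0 symbols changed. Probe sets with several symbols (1801) or none (11721) gave no genes, nor did 62 controls. All of them counted towards the array medians, and controls gave the ACTB and GAPDH ratios. The fit of every probe set singly also held 1143 with several symbols and 4262 with none. Groups were fitted with limma 3.58.1 in R 4.3.3 over all 6 arrays (lmFit with a coefficient per group, eBayes, 3 residual and 1.72 prior degrees of freedom). The fit was tested on simulated data. Promoter windows came from RefSeq and were searched for 2 motifs. Figures were drawn with matplotlib 3.10.9. Alternatives were another normalization, pseudocount and filter, an intensity trend, 4 arrays, a replicate block, all probe sets of a gene, and each array left out.

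Named genes are PP2A subunits, the 15 largest rises and falls with separated arrays, called list members (otherwise up to 3 with unadjusted p under 0.05), up to 10 called genes with an opposing probe set, genes whose siRNA difference was also called, and genes with at least 2 other probe sets past 1.5-fold. Any other gene was picked with its values in view. The comparison and the 41 lists were chosen with earlier results of these data known. With so few arrays, precision is limited by their number.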

Additional observations from a re-analysis of the deposited data

Results flagged for a closer look

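Of the genes called with siRNA 2 against scramble, 10 also differed between the siRNAs by the contrast siRNA 2 minus siRNA 1 (limma, adjusted p from 0.0418 to 0.04998). That contrast tests the difference itself. It reuses the siRNA 2 arrays and the estimate of spread by which these genes were called against scramble, so the overlap is no independent check. The log2 difference of CALD1 was 1.21, higher with siRNA 2. The fitted difference of MATN3, 1.32, is no measured size, since the gene was dim with siRNA 1 and scramble and passed the filter on low values through the siRNA 2 arrays alone, where it is high. Against scramble its rise is at least 1.21-fold when set against the array medians. The differences were -2.73 for ADAMTS10, -1.55 for MREG, -1.49 for NETO2, -1.33 for CYP4B1, -1.23 for IL13RA1, -1.14 for CD36, -1.11 for PAPOLA and -1.10 for DEFB1, all lower with siRNA 2. ADAMTS10 was dim with siRNA 2, so its value is not a measured size either. PPP2R2A itself had a difference of 0.51 on its brightest probe set, which was not called (adjusted p = 0.158). Its probe set 236492_at did not repeat that difference, at 334 and 221 with siRNA 1 and 179 and 272 with siRNA 2. Groups of 2 arrays are too small to look for a single array that stands apart.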

How the results depend on the processing

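The count of 76 called genes was 71 with quantile normalization, 1 with median centring, 162 with a pseudocount of 16, 375 with the stricter filter, 472 with the intensity trend, and 0 without a filter, with only the 4 arrays compared, with a gene's probe sets averaged, with every probe set fitted singly (chosen after seeing the data, 4917 of 29374 at an unadjusted p under 0.05) and with any 1 array left out (0 to 0). The 27 genes of siRNA 2 minus siRNA 1 became 12, 0, 30, 282 and 362 in the first 5 of these, and 0 without a filter, with the mean of probe sets and with any array left out (0 to 0). The array letters did not pair samples (correlations of deviations -0.031, 0.014 and 0.038). With the letter as a replicate block 0 genes were called in either comparison, and PPP2R2A stayed at -1.51 (adjusted p = 0.129). In the other fits with 0 calls, 1754 to 2526 genes had an unadjusted p under 0.05 against scramble and 1559 to 2309 between the siRNAs. The cause was not tested.

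PPP2R2A was -1.48 after median centring, -1.51 without a filter, -1.51 with 4 arrays and -1.09 as the mean of its probe sets, none called (adjusted p from 0.0631 to 0.178), and -1.61 to -1.40 with an array left out. With quantile normalization, median centring, a pseudocount of 16 or a scramble or siRNA 2 array left out, all called genes tested kept their direction. The trend, the block and leaving out a siRNA 1 array cannot move a gene's change against scramble. With the mean of probe sets, which weighs those below the filter equally with bright ones, 70 of 76 kept it. Of the 6 that turned CNDP2 stood at -0.45, NALCN at -0.06 and CCND3, STMN1, HECTD2 and BICD1 as given next. For CCND3, STMN1 and NALCN no other probe set passed the filter. In that setting the sign also turned among the named genes: PPP2R5B (-0.0012), PPP2R2C (-0.16), PPP2R5C (-0.0059), PPP2R3C (0.23), STRN (0.0071), PPP2R5E (0.11), CCND3 (-0.0778), STMN1 (-0.10), EIF2AK2 (-0.12), UQCRB (0.16), AKR1C2 (0.10), HECTD2 (-0.48) and BICD1 (0.31). With an array left out, the sign turned within these ranges: PPP2R2C -0.0030 to 0.54, STRN4 -0.0382 to 0.139, PPP2CB -0.0793 to 0.0072, PPP2R3C -0.141 to 0.0295, STRN -0.209 to 0.0430 and PPP2R5D -0.236 to 0.0650.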

Other observations

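Of 25 endosome, lysosome and trafficking genes tested 16 were above 0, with a median of 0.14. Limma called 2 higher, NRBF2 and RAB7A, and 1 lower, MREG, all given above, beside 0.597% of all genes tested, and the trend fit called 4 higher and 1 lower. EEA1, a tether of early endosomes, read 1805 and 1818 with scramble and 2725 and 2967 with siRNA 2, and WIPI1, an autophagy protein, read 544 and 483 with scramble and 871 and 753 with siRNA 2, both called by the trend fit alone.

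Of 12 histone genes tested 10 were above 0, with a median of 0.24 and none called by limma, 4 higher at an unadjusted p under 0.05 and 2 higher by the trend fit. H2AC6 read 379 and 509 with scramble and 721 and 735 with siRNA 2 and H2BC5 read 386 and 492 with scramble and 651 and 734 with siRNA 2. Of 17 NF-kappaB targets and chemokines 5 were above 0, with a median of -0.19 and none called (3 lower at an unadjusted p under 0.05, 0 by the trend fit), while the median with siRNA 1 was 0.17. The inhibitor NFKBIA read 2853 and 2888 with scramble and 1977 and 2338 with siRNA 2, and 3598 and 3709 with siRNA 1.

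The junction protein CDH1, E-cadherin, read 16923 and 15824 with scramble and 11545 and 11729 with siRNA 2 and 18213 and 18262 with siRNA 1 (siRNA 2 against scramble log2 change -0.49 ± 0.08, adjusted p = 0.0751). Of 21 tight junction and desmosome genes tested 6 were above 0, with a median of -0.07 and none called by limma or the trend fit. At an unadjusted limma p under 0.05, 2 were higher and 1 lower. At the upper end of that list, CLDN1 and MARVELD2 stood at 0.56 and 0.57. TNRC6C and TNRC6B, which encode scaffolds of RNA silencing, stood on opposite sides of 0, at 1.12 and -0.66, neither called by limma and both by the trend fit (adjusted p = 0.0261 and 0.00819), in a list of 12 with a median of 0.05. Oxidative phosphorylation genes had 22 tested members between -0.31 and 0.11.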
